A study of Mus musculus with 30 samples.

Results

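Gluconeogenesis, glucose reabsorption and fructose use were followed through 9 listed genes, *Pck1*, *G6pc*, *Fbp1*, *Pcx*, *Slc2a2*, *Slc5a1*, *Slc5a2*, *Slc2a5* and *Khk*. They were found by their symbols in the gene tables of kidney and gastrocnemius, 9 of 54838 genes in kidney and 9 of 55487 in gastrocnemius. All 9 were among the 17120 genes that passed the filter on low counts in kidney. In gastrocnemius, 15419 genes passed, and 3 of the 9 were among them, *Pck1*, *Pcx* and *Khk*. The mice were male C57BL/6J and formed 3 groups, with 5 libraries per group and tissue, 30 in all, each made from the bulk RNA of a mouse. CD mice ate a chow diet and WD mice a western diet, and both received water. WD + CHP mice ate the western diet and received cyclo(His-Pro) (CHP), a dipeptide closed to a ring, at 20 mg/kg, with 3 gavages in each week. Diet and gavage ran from 7 weeks of age to euthanasia at 24 weeks after a fast of 3 h, and all 3 groups lived at thermoneutrality (30 to 32 °C) from 6 weeks of age. No group received CHP on the chow diet, so an effect of CHP can only be read on the western diet.

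The proximal tubule of the kidney makes glucose, as the liver does, and it also takes filtered glucose back from the urine. In gluconeogenesis, pyruvate carboxylase (*Pcx*) forms oxaloacetate, phosphoenolpyruvate carboxykinase (*Pck1*) turns it into phosphoenolpyruvate, fructose bisphosphatase (*Fbp1*) bypasses phosphofructokinase, and the catalytic subunit of glucose-6-phosphatase (*G6pc*) frees glucose. Sodium-coupled uptake from the tubule fluid runs mainly through SGLT2 (*Slc5a2*) in the early tubule and through SGLT1 (*Slc5a1*) further down, and glucose leaves the cell through GLUT2 (*Slc2a2*). GLUT5 (*Slc2a5*) carries fructose, and ketohexokinase (*Khk*) phosphorylates it, the step that commits fructose to metabolism. Skeletal muscle lacks glucose-6-phosphatase and exports no glucose, and *Pcx* there refills the citric acid cycle, while *Pck1* is known in adipocytes for making the glycerol backbone of triglycerides.

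The stretches before the first annotated exon are shown for 5 genes, *Fbp1*, *Slc2a5* and *Khk* because they rose together in kidney on the WD, and *Pcx* and *Pck1* because they changed in gastrocnemius. They come from RefSeq promoter windows of the build GRCm38.p6, 250 bases before to 50 bases after a start, which were matched by symbol for 8 of the 9 genes (all but *Slc5a2*). The 9 windows include 2 of *Pcx*, and the one at the earlier start is shown. Each stretch stops before any exon of the gene in GENCODE M21. They lie at chr13:62888283-62888532 (*Fbp1*, minus strand) and, on the plus strand, at chr4:150119094-150119282 (*Slc2a5*), chr5:30921309-30921430 (*Khk*), chr19:4510222-4510471 (*Pcx*) and chr2:173152823-173153047 (*Pck1*). They are written 5′ to 3′ on the strand of the gene, and capitals mark the letters of a searched motif.
Fbp1: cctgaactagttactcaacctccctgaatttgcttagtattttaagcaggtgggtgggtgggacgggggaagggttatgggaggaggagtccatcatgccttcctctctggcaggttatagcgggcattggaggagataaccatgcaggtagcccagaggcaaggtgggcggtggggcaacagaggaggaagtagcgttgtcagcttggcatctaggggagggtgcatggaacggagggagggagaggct
Slc2a5: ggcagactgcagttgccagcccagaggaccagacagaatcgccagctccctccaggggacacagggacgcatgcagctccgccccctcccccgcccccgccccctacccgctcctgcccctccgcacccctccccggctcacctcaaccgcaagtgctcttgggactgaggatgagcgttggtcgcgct
Khk: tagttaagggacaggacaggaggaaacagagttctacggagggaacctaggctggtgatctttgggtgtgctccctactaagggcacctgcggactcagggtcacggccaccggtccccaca
Khk E-box: cgttccccgtCACGTGacaccgttaa
Pcx: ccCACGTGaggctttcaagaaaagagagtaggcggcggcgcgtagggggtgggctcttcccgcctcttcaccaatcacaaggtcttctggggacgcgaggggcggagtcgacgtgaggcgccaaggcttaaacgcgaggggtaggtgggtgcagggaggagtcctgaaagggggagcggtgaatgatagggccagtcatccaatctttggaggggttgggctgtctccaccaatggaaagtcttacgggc
Pck1: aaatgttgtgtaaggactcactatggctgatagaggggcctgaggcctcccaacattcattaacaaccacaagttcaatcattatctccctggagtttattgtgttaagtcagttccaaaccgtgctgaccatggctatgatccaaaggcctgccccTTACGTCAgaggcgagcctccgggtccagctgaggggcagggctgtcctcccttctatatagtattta

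The motifs were searched on both strands of all windows. They included the cyclic AMP response element (CRE) TGACGTCA, the E-box CACGTG, a FOXO site TGTTTAC and a direct repeat of HNF4, factors and elements known from the control of glucose metabolism. The CRE variant TTACGTCA was added after the sequences were seen. The E-box was found in the windows of *Khk*, *Pcx* and *Slc5a1*, beginning at positions -71, -248 and -143 from the RefSeq start, and in 7.15% of all 32817 windows. The *Khk* E-box lies in an exon of a GENCODE transcript that starts earlier, so it is shown on a line of its own with 10 bases on each side (chr5:30921478-30921503, plus strand). TTACGTCA was found at position -93 of *Pck1* and in 0.497% of all windows. TGACGTCA (1.79% of all windows), TGTTTAC (3.65%) and the HNF4 repeat (0.0396%) were not found in the windows of the 8 genes, and no match overlapped another. A match describes letters only, and a missing match says no more than that these letters are not in that window.

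Total counts ranged from 37189192 to 38211422 per library in kidney and from 50319024 to 53282969 in gastrocnemius. All 12 markers of the proximal tubule passed the filter in kidney, and all 8 markers of skeletal muscle fibres in gastrocnemius. The sample labels name frozen liver as the starting material, whereas the methods of the study name kidney and gastrocnemius, and the tissues were taken as the methods and the library names give them. Some libraries stood apart. In kidney, *Alb*, the albumin transcript of liver, reached 424 CPM (counts divided by the TMM-scaled library size in units of 1e+06) in WD replicate 5 and 81.4 CPM in CD replicate 1, against 8.97 to 27.7 CPM in the others. Kidney WD + CHP replicate 5 had 16.2 CPM of *Slc22a7*, an organic anion transporter of the late (S3) proximal tubule, against 97.6 to 122 CPM in the other 4 WD + CHP libraries. In gastrocnemius, *Alb* was at 47.8 CPM in CD replicate 1, 48.5 CPM in WD replicate 3 and 10.4 CPM in WD replicate 2, against 0.267 to 3.45 CPM in the others. Gastrocnemius CD replicate 5 held the sperm transcripts *Ldhc*, *Prm2* and *Odf1* at 850, 475 and 461 counts, against at most 3, 4 and 4 counts elsewhere. The main calls that these libraries bear on are also given without them.

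In kidney, the order of the 9 genes by level per length was the same in each group. In CD, *Pck1* was highest at 896 ± 75.2 CPM per kilobase of exon (mean ± SD, n = 5), followed by *Fbp1* (443 ± 23.3), *Khk* (229.5 ± 15.3), *G6pc* (205 ± 27.1) and *Pcx* (162, from 142 to 177). The transporters were lower, with *Slc5a2* at 69.5 ± 5.27, *Slc2a2* at 36.6 ± 4.12, *Slc2a5* at 27.4 ± 2.21 and *Slc5a1* at 18.4 ± 2.19 CPM per kilobase. Among neighbours in that order, the CD libraries of *Khk* and *G6pc*, of *G6pc* and *Pcx*, and of *Slc2a2* and *Slc2a5* overlapped. The mitochondrial isoform *Pck2* was far below *Pck1*, and the ratio of *Pck1* to *Pck2* per kilobase ran from 465 to 580 in CD libraries, from 642 to 735 in WD and from 478 to 827 in WD + CHP. *Slc5a2* exceeded *Slc5a1* in every library, and the median of their ratio per kilobase was 3.71 for CD, 5.25 for WD and 4.60 for WD + CHP.

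**Figure D1:**
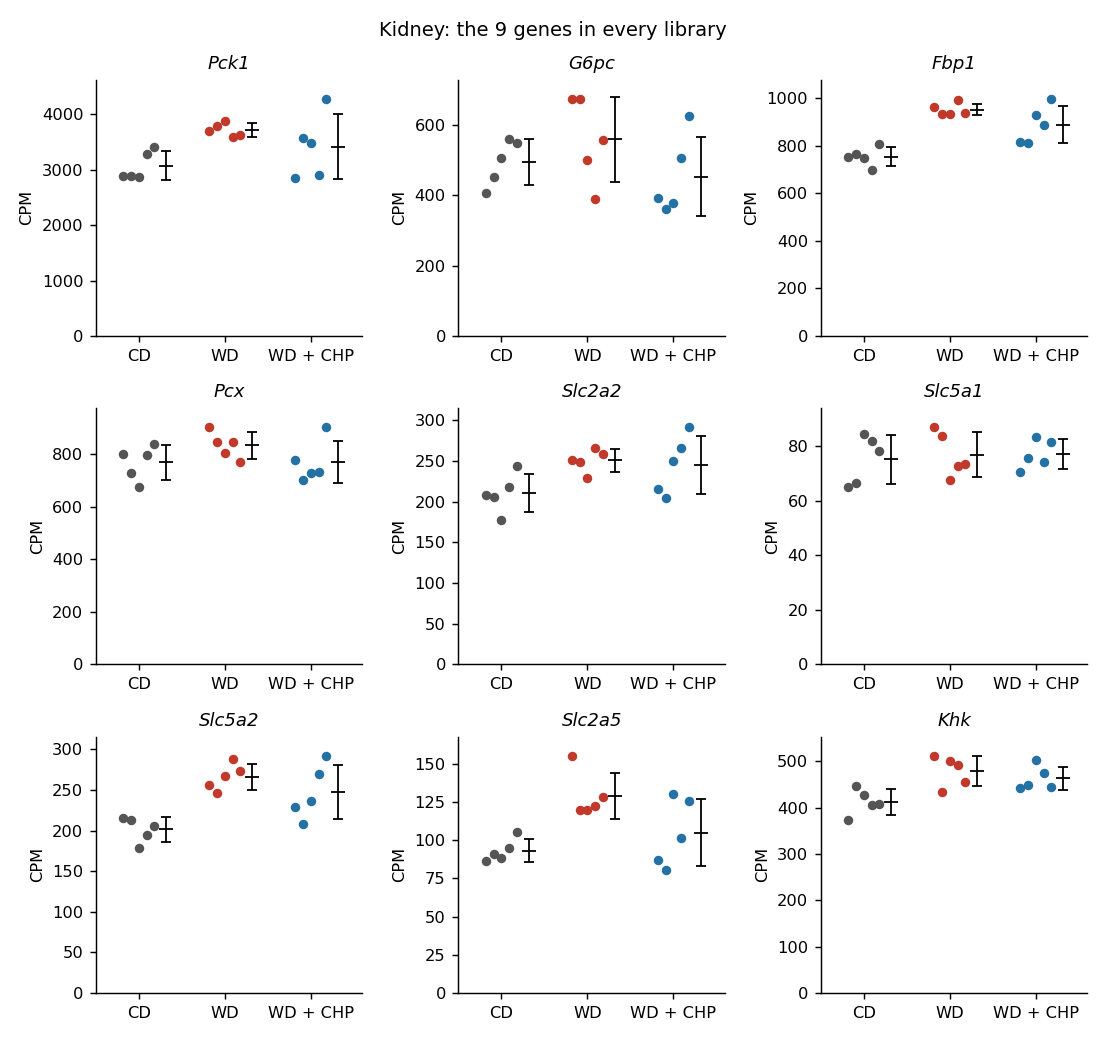
Level of each of the 9 genes in kidney in CPM (y axes, from 0) for CD, WD and WD + CHP (x axes). Each point is 1 library, and the black bar with whiskers beside the points is the mean ± SD of 5 libraries. *Fbp1*, *Slc5a2*, *Slc2a5* and *Pck1* are higher in all 5 WD libraries than in any CD library.

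The first question was what the western diet changed. In kidney, 4 of the 9 genes rose on the WD and none fell. The 4 were *Fbp1* of gluconeogenesis, the glucose transporter *Slc5a2*, the fructose transporter *Slc2a5* and *Khk*, and their rises were small, from 1.16-fold to 1.39-fold. Over all genes tested, 9.46% were called at an adjusted p under 0.05, with 4.56% higher and 4.90% lower in WD (edgeR, Benjamini-Hochberg over 17120 genes). All 9 log2 fold changes were above 0, with a median of 0.25, while the median over all genes was 0.0015. The libraries are bulk RNA, in which a larger share of tubule cells and more RNA per cell cannot be told apart.

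Of the gluconeogenic enzymes, *Fbp1* (chr13:62864753-62888282, minus strand, GRCm38) changed most clearly. Its CD libraries held 751, 766, 749, 696 and 806 CPM, and its WD libraries 963, 934, 931, 989 and 937 CPM. Every WD library was above every CD library, and the log2 fold change was 0.34 (SE 0.055, adjusted p = 0.00113, edgeR quasi-likelihood F test). *Pck1* (chr2:173153048-173159273) held 2894, 2891, 2877, 3282 and 3417 CPM in CD and 3704, 3780.5, 3882, 3585 and 3626 CPM in WD. These groups did not overlap either, yet the difference missed the threshold at a log2 fold change of 0.27 (SE 0.090, adjusted p = 0.0620). It was under the threshold in 4 of the 22 alternative analyses, among them DESeq2 (adjusted p = 0.0251) and the fit of only the 2 groups (adjusted p = 0.00773). *Pcx* (chr19:4510472-4621752) held 675 to 842 CPM in CD and 771 to 903 CPM in WD, which overlapped (log2 fold change 0.12, adjusted p = 0.317). *G6pc* (chr11:101367561-101377903) had widely spread WD libraries, at 674, 672, 500.2, 389.7 and 557 CPM against 405, 451, 507, 559 and 548 CPM in CD (log2 fold change 0.18, SE 0.18, adjusted p = 0.599). The WD libraries of *G6pc* lay on both sides of the CD range.

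Among the glucose transporters, *Slc5a2* (chr7:128265657-128272430) held 216, 213, 179, 194 and 205 CPM in CD and 256, 247, 268, 288 and 273 CPM in WD. The groups did not overlap, and the log2 fold change was 0.40 (SE 0.078, adjusted p = 0.00441). *Slc5a2* shares 597 exon bases with *BC017158* on the opposite strand, and the strand setting of the counting is not given in the sources used here. *BC017158* stayed near 19.3 CPM in CD and 19.4 CPM in WD (log2 fold change 0.011, adjusted p = 0.923). *Slc5a1* (chr5:33104219-33162870) held 65.0 to 84.6 CPM in CD and 67.5 to 87.1 CPM in WD, ranges that overlapped almost fully (log2 fold change 0.032, SE 0.083, adjusted p = 0.858). *Slc2a2* (chr3:28697903-28731359) held 178 to 244 CPM in CD and 229 to 266 CPM in WD, with a log2 fold change of 0.25 (SE 0.092) and an adjusted p of 0.102. It was under the threshold in 4 of 22 alternatives.

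For fructose, *Slc2a5* (chr4:150119283-150144169) showed the largest fold change of the 9 genes with all libraries in the fit, but not without WD replicate 1 (log2 fold change 0.40, adjusted p = 0.0763, against 0.42 for *Slc5a2*). It held 86.3, 90.9, 88.6, 95.1 and 105 CPM in CD and 155, 120.0, 120.1, 123 and 128 CPM in WD. The groups did not overlap, and WD replicate 1 stood above the other 4 WD libraries. The log2 fold change was 0.47 (SE 0.13, adjusted p = 0.0337), and it was no longer called in 10 of the 22 alternatives. Over all 22 the estimate lay between 0.40 and 0.52. *Khk* (chr5:30921431-30931248) held 374, 447, 428, 405 and 408 CPM in CD and 513, 435, 501, 492 and 456 CPM in WD. WD replicate 2 lay within the CD range, and the log2 fold change was 0.22 (SE 0.056, adjusted p = 0.0201). Without the libraries with the most *Alb* (CD replicate 1 and WD replicate 5), *Fbp1* (log2 fold change 0.34, adjusted p = 0.00638) and *Slc5a2* (0.42, adjusted p = 0.0151) were called, while *Slc2a5* (0.45, adjusted p = 0.114) and *Khk* (0.20, adjusted p = 0.0526) were not. Without CD replicate 1, WD replicate 1 or WD replicate 3 alone, the same 2 calls were lost, with an adjusted p between 0.0509 and 0.0763. The groups did not overlap for 4 of the 9 genes, all higher in WD, against 4.02% of all genes.

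The other genes of these pathways moved in both directions. Of 61 further genes listed for gluconeogenesis, hexose transport and fructose use, 59 were tested in kidney, of which 9 rose and 7 fell on the WD, when 4.56% of all genes rose and 4.90% fell. Their median log2 fold change was 0.042. Of 13 tested enzymes and carriers of gluconeogenesis, 4 rose and 1 fell. They included *Slc37a4*, the carrier that brings glucose-6-phosphate to G6PC (log2 fold change 0.43, adjusted p = 0.00130), *Got1* (0.21, adjusted p = 0.0190), and *Fbp2*, the muscle form of fructose bisphosphatase, which fell (-0.44, adjusted p = 0.0126). Of 12 genes of substrate entry, 2 rose and 1 fell, among them *Glud1*, which takes glutamate carbon into the citric acid cycle and rose (0.48, adjusted p = 4.31e-05), and the glycerol channel *Aqp7*, which fell (-0.33, adjusted p = 0.00626). Of 14 regulators, 3 fell and 0 rose, among them *Irs2* (-1.50, adjusted p = 0.0184) and *Insr* (-0.16, adjusted p = 0.0433), both parts of insulin signalling.

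Of 13 further transporters and hexokinases tested in kidney, 2 rose and 1 fell on the WD. *Slc2a4*, the insulin-responsive glucose transporter GLUT4, rose (log2 fold change 0.37, adjusted p = 0.000489), as did *Slc5a10*, a sodium-coupled carrier of fructose and mannose (0.67, adjusted p = 0.00243), and *Slc5a4a* fell (-0.66, adjusted p = 0.0195). Of 10 genes of fructose use and the polyol pathway, 3 rose and 1 fell. Beside *Slc5a10*, which belongs to this list too, *Tkfc*, which phosphorylates the glyceraldehyde made from fructose, rose (0.33, adjusted p = 0.00228). *Txnip*, which restrains glucose uptake and responds to glucose, fell (-0.92, adjusted p = 0.000106).

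Some markers of tubule segments and of other cell types were called on the WD, where 4.56% of all genes rose and 4.90% fell. Of 12 proximal tubule markers, 1 rose (*Miox*) and 1 fell (*Cubn*), and their summed level was 15910 to 17645 CPM in CD and 17056 to 17941 CPM in WD. Of 6 markers of the S3 segment, 1 fell (*Slc22a7*, log2 fold change -2.53, adjusted p = 0.00312), and all 6 log2 fold changes were below 0, with a median of -0.47 and a summed level of 3215 to 4260 CPM in CD and 2937 to 3157 CPM in WD. Of 7 markers of other nephron segments, 1 rose (*Slc12a3* of the distal tubule, 0.24, adjusted p = 0.00852), and their sum was 3972 to 4472 CPM in CD and 3960 to 4520 CPM in WD. *Pvalb*, listed for muscle fibres and also known from the distal tubule, rose as well (0.51, adjusted p = 0.000356). Of 6 immune and stromal markers, 1 rose (*Col1a1*, 0.73, adjusted p = 0.0238), with a sum of 101 to 126 CPM in CD and 110.3 to 129 CPM in WD. Of 8 liver markers, 6 passed the filter and 1 rose (*Ttr*), and their sum was 384 to 586 CPM in CD and 559 to 1219 CPM in WD. *Fbp1* in the WD library with the highest *Alb* was 937 CPM, inside the range of the other 4 WD libraries. The part of these markers in the changes of the 9 genes was not tested.

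**Figure D2:**
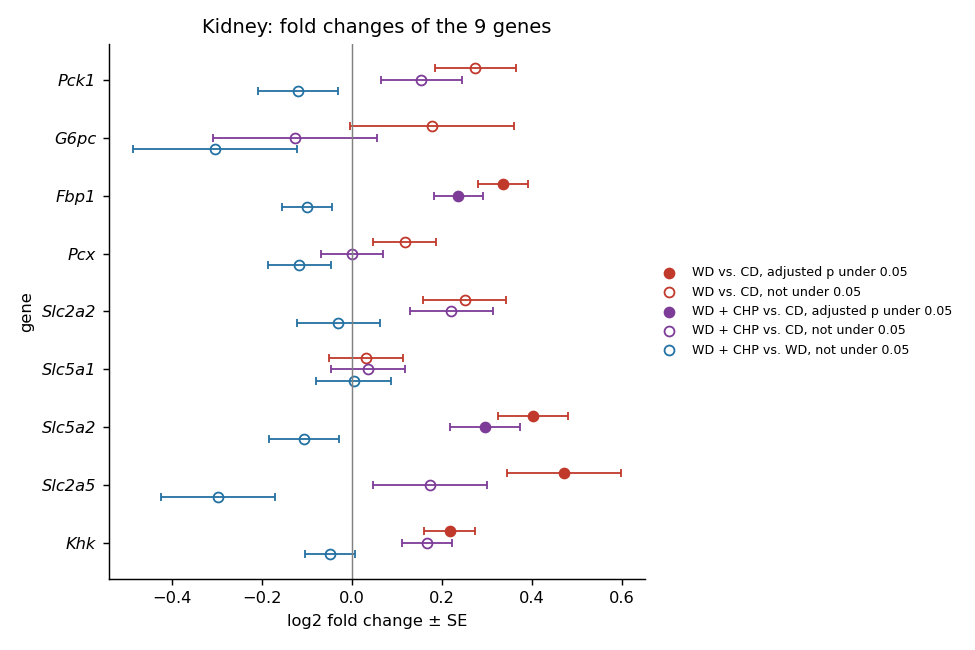
Log2 fold changes of the 9 genes in kidney (x axis) with their SE as whiskers, for WD vs. CD (red), WD + CHP vs. CD (purple) and WD + CHP vs. WD (blue). Filled points have an adjusted p under 0.05. All 9 points of WD vs. CD lie above 0, and no point of WD + CHP vs. WD is filled. The comparisons share libraries.

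The second question was what CHP changed on the western diet. In kidney, 0 of the 9 genes differed between WD + CHP and WD at an adjusted p under 0.05, when 0.181% of all genes did (edgeR). DESeq2 and limma-voom called 0 of the 9 as well, and 1 gene, *Slc2a5*, had an unadjusted p under 0.05 (0.0337, adjusted p = 0.406), as had 1903 of the 17120 genes tested. It held 87.1, 80.9, 130.1, 102 and 126 CPM in WD + CHP, where replicates 1, 2 and 4 were within or below the CD range, under every WD library, and replicates 3 and 5 within the WD range (log2 fold change -0.30, SE 0.13). The log2 fold changes of 8 of the 9 genes were below 0 and that of *Slc5a1* was 0.0032, with a median of -0.11 against -0.0058 over all genes. This comparison shares the WD libraries with WD vs. CD. Of 12 proximal tubule markers, 0 were called, and 8 log2 fold changes were above 0 and 4 below, with a median of 0.028. Of 6 S3 markers, 0 were called, and 5 were above 0 and 1 below, with a median of 0.15 (*Slc22a7*, 1.49, adjusted p = 0.179). The part of these markers in the values of the 9 genes was not tested.

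*Pck1* held 2843, 3577, 3485, 2903 and 4281 CPM in WD + CHP, an SD of 585 against 119.5 CPM in WD (log2 fold change -0.12, SE 0.090, adjusted p = 0.665). *Fbp1* held 816, 809, 929, 887 and 997 CPM (-0.099, adjusted p = 0.542), and *Slc5a2* held 229, 208, 237, 269.8 and 292 CPM (-0.11, adjusted p = 0.660). *G6pc* held 391, 361, 378, 505 and 626 CPM (-0.30, SE 0.18, adjusted p = 0.582). In each of these 4 genes, replicate 5 was the highest of the WD + CHP libraries, and this library was the highest for 6 of the 9 genes. It is the library with little *Slc22a7*, whose 16.2 CPM lies below the 23.0 to 42.7 CPM of the WD libraries. Without it, the log2 fold changes were -0.21 for *Pck1* (adjusted p = 0.20), -0.45 for *G6pc* (0.278), -0.14 for *Fbp1* (0.22), -0.17 for *Slc5a2* (0.286) and -0.37 for *Slc2a5* (0.222), and 0 of the 9 genes were called. *Khk* held 442 to 503 CPM and *Slc2a2* 204 to 291 CPM, with log2 fold changes of -0.050 (adjusted p = 0.795) and -0.031 (0.943). Of the 59 further pathway genes, 0 were called and 6 had an unadjusted p under 0.05, the share over all genes being 1903 of 17120.

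Against CD, the kidneys of WD + CHP mice had 2 of the 9 genes higher and none lower, where 12.1% of all genes were called, 6.33% as higher and 5.81% as lower. This comparison shares its WD + CHP and CD libraries with the comparisons above. *Fbp1* was higher at a log2 fold change of 0.24 (SE 0.055, adjusted p = 0.0104), and all 5 WD + CHP libraries, from 809 CPM, were above the highest CD library at 806 CPM. It was the only 1 of the 9 genes without overlap, against 4.41% of all genes. *Slc5a2* was higher by 0.30 (SE 0.078, adjusted p = 0.0218), with WD + CHP replicate 2 within the CD range. It was not called without WD + CHP replicate 4 (0.27, adjusted p = 0.0616), with no filter on low counts (0.30, adjusted p = 0.0680) or with only the 2 groups in the fit, 3 of 22 alternatives. Without WD + CHP replicate 5, both were called, *Fbp1* at 0.19 (adjusted p = 0.0216) and *Slc5a2* at 0.23 (adjusted p = 0.0375). *Khk* was just outside the threshold (0.17, SE 0.056, adjusted p = 0.0568) and was called in 6 of 22 alternatives, and *Slc2a2* in 2 of 22. *Slc2a5* was at 0.17 (adjusted p = 0.423), *Pck1* at 0.15 (adjusted p = 0.289), *Slc2a2* at 0.22 (adjusted p = 0.135), *G6pc* at -0.13 (adjusted p = 0.712) and *Pcx* at -0.00019 (adjusted p = 0.999).

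Of the 59 further pathway genes, 9 were higher and 7 lower in WD + CHP than in CD, beside 6.33% and 5.81% of all genes. *Glud1* (log2 fold change 0.26, adjusted p = 0.00443), *Slc37a4* (0.29, adjusted p = 0.0133), *Slc5a10* (0.45, adjusted p = 0.0193) and *Slc2a4* (0.21, adjusted p = 0.0212) were higher. *Txnip* (-0.90, adjusted p = 0.000171), *Irs2* (-1.27, adjusted p = 0.0320) and *Aqp7* (-0.35, adjusted p = 0.00360) were lower. *Slc2a8*, an intracellular hexose transporter, was lower (-0.31, adjusted p = 0.00977). Of the 12 proximal tubule markers, 3 were higher than in CD (*Slc4a4*, log2 fold change 0.34, *Miox*, 0.24, and *Slc22a6*, 0.24) and *Cubn* was lower (-0.21), with a summed level of 16347 to 19040 CPM in WD + CHP. Of the S3 markers, 0 of 6 were called, but 5 log2 fold changes were below 0, with a median of -0.27. An unadjusted p under 0.05 was found for 3 of the 6, and for 4622 of the 17120 genes tested. *Slc22a7* (-1.04, adjusted p = 0.107) was lower in all 5 WD + CHP libraries than in any CD library. In the other lists, *Slc12a3* (0.18), *Ttr* (0.86) and *Pvalb* (0.51) were higher, and *Pecam1* of endothelium was lower (-0.18). The part of these markers in the differences of *Fbp1* and *Slc5a2* was not tested.

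In gastrocnemius, *Pcx* fell on the WD and *Pck1* was lower with CHP. *Pcx* fell to 0.68 of its CD level, and *Pck1* in WD + CHP was at 0.54 of its WD level. *Khk* did not pass the threshold in any comparison. On the WD, 1 of the 3 tested genes was called, against 8.51% of all genes, with 4.62% higher and 3.88% lower. With the total count in place of TMM, 1498 genes were called as higher and 335 as lower, against 713 and 599 with TMM, and *Pcx* was called in both.

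*Pcx* in gastrocnemius held 142, 115, 123, 132 and 124 CPM in CD and 84.4, 82.7, 91.7, 93.4 and 78.5 CPM in WD. Every WD library was below every CD library, for 1 of the 3 genes and for 3.76% of all genes in that direction. The log2 fold change was -0.56 (SE 0.061, adjusted p = 3.91e-05, edgeR). Without the 4 libraries with liver or sperm transcripts it was -0.53 (adjusted p = 0.00664). In WD + CHP, *Pcx* held 106, 94.8, 97.9, 96.8 and 94.7 CPM, above every WD library and below every CD library. Against WD the log2 fold change was 0.19 (SE 0.061), with an unadjusted edgeR p of 0.00663 that missed the threshold after adjustment (adjusted p = 0.210), and against CD it was -0.38 (SE 0.061, adjusted p = 0.00129). Without the same 4 libraries these were 0.20 (adjusted p = 0.479) and -0.33 (adjusted p = 0.0242). WD + CHP replicate 1, at 106 CPM, stood above the other 4 libraries of its group.

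*Pck1* was low in gastrocnemius, at 254 to 738 counts per library. It held 11.6, 8.94, 7.07, 8.63 and 11.6 CPM in CD, 13.3, 8.93, 13.5, 9.82 and 8.84 CPM in WD and 5.24, 6.42, 5.44, 4.98 and 7.19 CPM in WD + CHP. The CD and WD libraries overlapped (log2 fold change 0.19, SE 0.16, adjusted p = 0.521), and every WD + CHP library was below every WD library. WD + CHP vs. WD gave a log2 fold change of -0.89 (SE 0.16, adjusted p = 0.0280), 1 gene called of 3 where 0.376% of all genes were called and 0.318% called as lower. Both *Pck1* and *Pcx* had no overlap between WD + CHP and WD, as had 1.65% of all genes in the direction of *Pck1* and 1.18% in that of *Pcx*. Against CD, *Pck1* was lower (log2 fold change -0.71, SE 0.16, adjusted p = 0.0147), so that 2 of the 3 genes were called in this comparison, against 9.23% of all genes (4.75% higher and 4.47% lower), and *Pcx* was the 1 without overlap, against 4.20% in its direction. The call against WD was lost in 11 of 23 alternatives, which were no filter on low counts (adjusted p = 0.0777), the replicate block alone (0.0599) or with the length and GC correction (0.0613), and the adipocyte score as a covariate (0.691), besides fits on fewer libraries. Among these, it was lost without WD replicate 1 or 3, or without WD + CHP replicate 1, 3, 4 or 5 (adjusted p 0.0517 to 0.0976), and without the 4 libraries with liver or sperm transcripts (-0.86, adjusted p = 0.0884). Without those 4 libraries the difference from CD was -0.49 (adjusted p = 0.102).

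**Figure D3:**
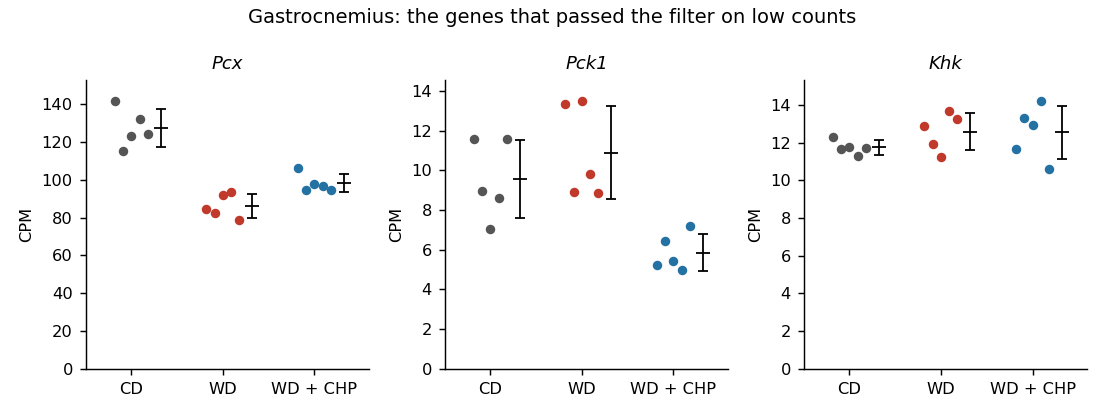
Level in gastrocnemius in CPM (y axes, from 0) of the 3 genes that passed the filter, for CD, WD and WD + CHP (x axes). Each point is 1 library, and the black bar with whiskers is the mean ± SD of 5 libraries. All *Pcx* points of WD lie below those of CD, and all *Pck1* points of WD + CHP lie below those of WD.

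Markers of adipocytes moved in the same libraries. On the WD, 4 of 8 adipocyte markers rose and 1 (*Cfd*) fell, and with CHP 3 of 8 fell relative to WD, with 7 of 8 log2 fold changes below 0. Of all genes, 4.62% rose and 3.88% fell on the WD, and 0.318% fell with CHP. *Lep*, the leptin transcript, held 0.561 to 3.84 CPM in CD, 19.4 to 24.9 CPM in WD and 3.23 to 9.51 CPM in WD + CHP. *Adipoq*, the adiponectin transcript, held 5.60 to 10.9, 14.6 to 17.2 and 5.12 to 9.51 CPM. The summed level of the 8 markers was 113 to 186 CPM in CD, 168 to 218 CPM in WD and 98.7 to 163 CPM in WD + CHP, and none of the 8 was at 0 in a group. The ratio of *Pck1* to *Adipoq* per kilobase was 0.379 to 0.704 in CD, 0.230 to 0.347 in WD and 0.250 to 0.460 in WD + CHP. The range of WD + CHP overlapped those of WD and CD, while every CD library was above every WD library. *Lep*, *Adipoq*, *Plin1* and *Cidec* of the WD libraries did not overlap those of either other group. An adipocyte score is thus tied to the WD group, and a comparison with WD cannot separate the score from the group. With this score as a covariate, *Pck1* in WD + CHP vs. WD was at -0.79 (SE 0.31, adjusted p = 0.691) and *Pcx* in WD vs. CD at -0.50 (SE 0.11, adjusted p = 0.115). Without it, the SE was 0.16 for *Pck1* and 0.061 for *Pcx*. In that fit, 0 of all genes were called in WD + CHP vs. WD (1102 at an unadjusted p under 0.05) and 5 in WD vs. CD, against 58 and 1312 without the covariate. In WD + CHP vs. CD it called 1519 genes, among them *Pck1* (-0.70, adjusted p = 0.0194) and *Pcx* (-0.38, adjusted p = 0.00144). Without the covariate, *Lep* was higher (2.08) and *Cfd* lower (-1.59) there among the 8 adipocyte markers. *Adipoq* (-0.15), *Plin1* (-0.055) and *Cidec* (0.072) were not called in WD + CHP vs. CD, where *Pck1* was at -0.71. How much of the *Pck1* signal comes from adipocytes in the muscle samples was not tested. Of 8 muscle fibre markers, 1 rose on the WD (*Mb*, log2 fold change 0.70, adjusted p = 0.0294) and 2 fell (*Ckm*, -0.26, adjusted p = 0.0199, and *Acta1*, -0.22, adjusted p = 0.0196). Their sum was 186478 to 223036 CPM in CD, 162257 to 189583 CPM in WD and 172486 to 198801 CPM in WD + CHP, and its part in the fall of *Pcx* was not tested. In WD + CHP vs. CD, *Mb* alone of the 8 was called (0.89, adjusted p = 0.00847).

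**Figure D4:**
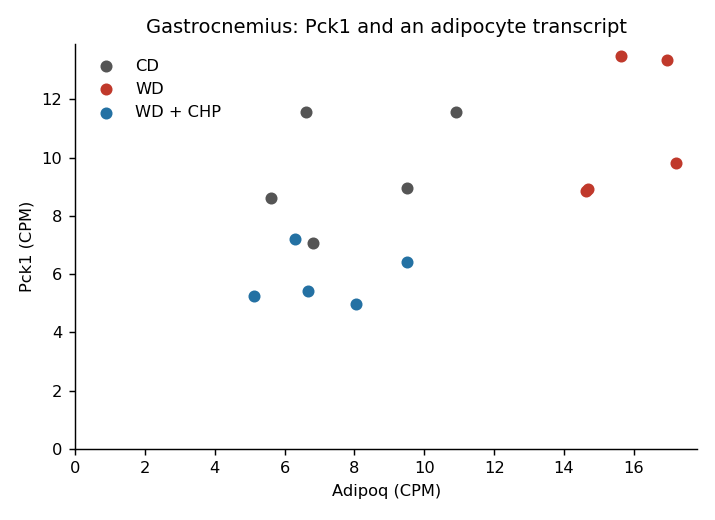
*Pck1* (y axis, CPM) against *Adipoq* (x axis, CPM) in the 15 gastrocnemius libraries, coloured by group. Each point is 1 library. The WD libraries lie at 14.6 to 17.2 CPM of *Adipoq*, to the right of both other groups, and the WD + CHP libraries lie at 4.98 to 7.19 CPM of *Pck1*, below all WD libraries.

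*Khk* held 12.3, 11.6, 11.7, 11.3 and 11.7 CPM in CD, 12.9, 11.9, 11.2, 13.7 and 13.2 CPM in WD and 11.6, 13.3, 13.0, 14.2 and 10.6 CPM in WD + CHP. All 3 groups overlapped, with log2 fold changes of 0.099 (SE 0.074, adjusted p = 0.445) for WD vs. CD and -0.0042 (SE 0.073, adjusted p = 0.991) for WD + CHP vs. WD. Of the 61 further pathway genes, 49 were tested in gastrocnemius, of which 4 rose and 4 fell on the WD, when 4.62% of all genes rose and 3.88% fell. *Gk*, glycerol kinase (log2 fold change 0.85, adjusted p = 0.00402), *Slc16a1*, a lactate carrier (0.49, adjusted p = 0.00188), *Mdh1* (0.35, adjusted p = 0.0118) and *Slc25a10* (0.37, adjusted p = 0.0489) rose. *Txnip* (-0.71, adjusted p = 2.2e-05), *Gpi1* (-0.25, adjusted p = 0.00449), *Slc2a4* (-0.23, adjusted p = 0.0297) and *Slc2a12* (-0.29, adjusted p = 0.0247) fell. With CHP relative to WD, 0 of the 49 were called and 12 had an unadjusted p under 0.05, as had 1888 of 15419 genes in all. WD + CHP differed from CD in 6 that were higher and 2 that were lower, beside 4.75% and 4.47% of all genes.

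The other 6 genes were near or below the limit of detection in gastrocnemius. *Slc5a1* had 1 count in all 15 libraries together, and *Slc5a2* had 0 to 2 counts per library. A limit of 3 counts, which a count of 0 allows, corresponds to 0.0548 to 0.0610 CPM here, and covers counting error only. *Slc2a2* had 0 to 5 counts in all libraries but WD replicate 3, which had 12. *G6pc* had 16 counts in CD replicate 1, 8 in WD replicate 2 and 33 in WD replicate 3, and 0 or 1 in the other libraries. These are the 3 libraries with the most *Alb*. *Fbp1* had 143 counts in CD replicate 5, 45 in WD replicate 3, 14 in CD replicate 1 and 8 in WD replicate 2, and 0 to 3 in the others. *Slc2a5* had 230 counts in CD replicate 5 and 0 to 7 elsewhere. CD replicate 5 is the library with sperm transcripts, and *Slc2a5* (GLUT5) is known as a fructose transporter of sperm. In the remaining libraries each of the 6 genes had at most 7 counts, too few to compare the groups at this depth.

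**Figure D5:**
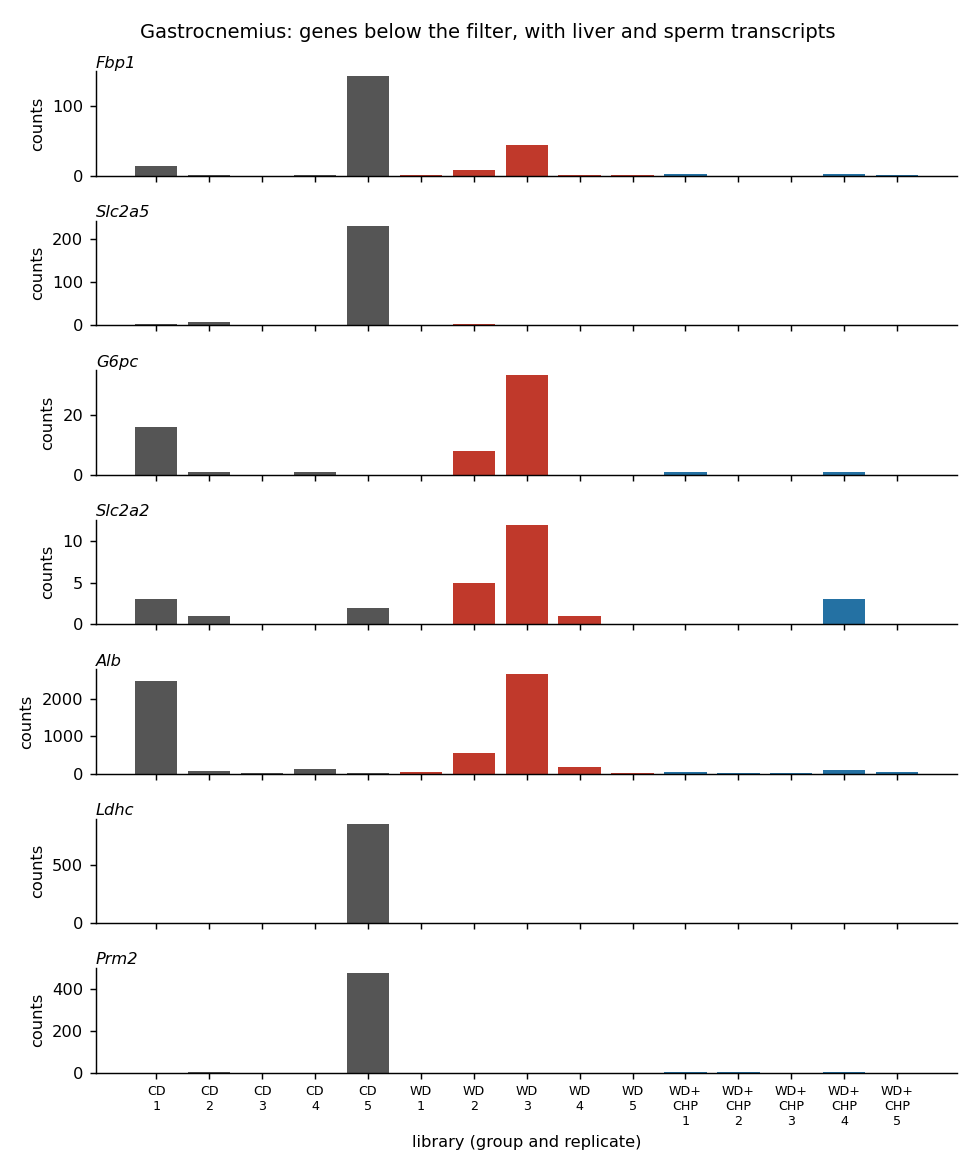
Counts (y axes, from 0) in each of the 15 gastrocnemius libraries (x axis) for *Fbp1*, *Slc2a5*, *G6pc* and *Slc2a2*, for *Alb* of liver and for *Ldhc* and *Prm2* of sperm. Each bar is 1 library, coloured by group. *G6pc* is seen in the libraries with *Alb* (up to 33 counts), and *Slc2a5* in CD replicate 5 (230 counts), which also holds *Ldhc* and *Prm2*.

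The third comparison was between the tissues, for the 3 genes measured in both. The effect of the WD on *Pcx* differed, with a log2 fold change that was 0.68 higher in kidney than in gastrocnemius (SE 0.099, adjusted p = 4.87e-05, where 5.94% of 13943 genes were called). *Pcx* did not differ between WD and CD in kidney beyond its spread (0.12) and fell in gastrocnemius (-0.56). For *Pck1* and *Khk* the tissues differed by 0.092 (adjusted p = 0.834) and 0.12 (adjusted p = 0.50) in the effect of the WD. In the effect of CHP, *Pck1* differed by 0.76 (SE 0.19, adjusted p = 0.0524) and *Pcx* by -0.32 (SE 0.099, adjusted p = 0.122), neither under the threshold, where 0.674% of genes were called. Without kidney WD + CHP replicate 5, *Pcx* was called (-0.37, adjusted p = 0.0378) and *Pck1* was not (0.68, adjusted p = 0.0652). *Pck1* was called in 7 of the other fits with 1 library left out (adjusted p 0.0271 to 0.0460), namely without kidney WD replicate 2, kidney WD + CHP replicate 1 or 4, gastrocnemius WD replicate 2, 4 or 5, or gastrocnemius WD + CHP replicate 5. *Khk* differed by -0.059 (adjusted p = 0.840).

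Over the 15 kidney libraries, each gene was set beside the 9573 other genes of a mean log2 CPM of at least 3, as a description of likeness that includes the difference between groups. *Fbp1* was most like *Cryl1* (Pearson r = 0.96), *Car2* (0.96) and *Slc37a4* (0.95). *Slc2a5* was most like *Dbn1* (0.91), *Tkfc* (0.90) and *Dgat2* (0.90), so that 1 of its 3 nearest genes is an enzyme of fructose use. *Slc5a2* was most like *Agfg2* (0.95), *Ces1e* (0.94) and *Cryl1* (0.91), and *Khk* most like *Higd2a* (0.94), *1700037H04Rik* (0.94) and *Syngr2* (0.91). *Pck1* (*Ppme1*, *Dync1i2*, *Scnm1*), *G6pc* (*Arrdc3*, *Notch2*, *Cspg4*), *Pcx* (*Alpl*, *Myrf*, *Ass1*), *Slc2a2* (*Tnfaip8*, *Cav1*, *Hexim1*) and *Slc5a1* (*Fam169b*, *Hes1*, *Slc13a2*) had lower highest values, from 0.75 to 0.90. Libraries share depth and scaling, so these values carry no test.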

How the data were processed

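Kidney and gastrocnemius libraries were analysed, 5 per group and tissue. The authors selected polyA RNA for BGISEQ sequencing and used SOAPnuke and FastQC on the reads, and the submitters' processing notes name STAR 2.7.3a with the builds GRCm38 and mm10. The deposited values are raw counts of reads on each gene, without normalisation. The tool and annotation used for counting, and its strand setting, are not given in the sources used here. Each column carried the label of a library (0 columns and 0 rows were left over). Within each group, no library was a copy of another, as the libraries differed beyond counting error (chi-square per gene 8.82 to 74.6).

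The tools were edgeR 4.0.16, limma 3.58.1 and DESeq2 1.42.0 under R 4.3.3, and matplotlib 3.10.9 under Python 3.11.15 for the plots. Low genes were removed with filterByExpr at a minimum count of 10, TMM factors were applied, and a model of the 3 groups of a tissue was tested with edgeR's robust quasi-likelihood F test (two-sided). All p-values, adjusted by Benjamini-Hochberg across every gene retained, come from edgeR unless another tool is named, and 0.05 was the threshold. WD vs. CD, WD + CHP vs. WD and WD + CHP vs. CD were tested, and a gene is said to rise or fall where it passed. A joint model of 13943 genes gave the interaction of tissue and group. Its TMM factors were computed over all 30 libraries of both tissues together, and the libraries were taken as independent. The paper lists fewer mice for this study than there are libraries here, so some mice gave both tissues. Which libraries share a mouse is not stated, and the joint model does not account for it. CPM per kilobase used exon lengths of GENCODE M21, where 54809 kidney and 55227 gastrocnemius identifiers were found. Simulated counts were used as a check. With true changes of 0.5 and 1 on the log2 scale, 76% and 96% were called in the simulated kidney comparison of WD and CD (16962 genes), and 78% and 96% in that of gastrocnemius (15318 genes).

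All 9 genes were named, with at most 4 called genes per pathway list and comparison, taken by adjusted p, and the 3 genes most like each member. *Alb*, *Slc22a7*, *BC017158* and the sperm genes were singled out after their values were seen. The members and lists were chosen with earlier results of these data known. Alternatives changed the tool (DESeq2 or limma-voom), the scaling (size factors of DESeq2, or total count), the filter (none, or 10 counts in each library), the samples (the compared groups alone, or 1 library removed) and the model (replicate block, length and GC correction, or an adipocyte score in gastrocnemius). The fit without the robust setting and the removal of libraries with liver or sperm transcripts were added after the data were seen. Liver libraries were not analysed here, and some genes counted in the lists are not reported here by name.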

Additional observations from a re-analysis of the deposited data

Results flagged for a closer look

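In 42 sets of 5 libraries, 1 gene in 1 group each, a highest or lowest library far from the other 4 was sought (gap over range above 0.71), and 7 were found. Only sets with at least 10 counts in 1 library were searched, so sets of traces entered through a high library. Chance flags about 1 in 20 sets of normally spread values, a rate that does not hold for counts near 0. In kidney, *Slc2a5* in WD replicate 1 was at 155 CPM, with the nearest WD library at 128 CPM. Without this library the WD difference of *Slc2a5* was 0.40 on the log2 scale (adjusted p = 0.0763, edgeR). In gastrocnemius, *Pcx* in WD + CHP replicate 1 was at 106.2 CPM, with the nearest library at 97.9 CPM.

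The other 5 are traces in gastrocnemius of genes that did not pass the filter. *G6pc* stood out in CD replicate 1 (0.309 CPM) and WD replicate 3 (0.603 CPM), and *Fbp1* in WD replicate 3 (0.822 CPM), all in libraries with *Alb*. *Fbp1* (2.75 CPM) and *Slc2a5* (4.42 CPM) stood out in CD replicate 5, the library with sperm transcripts. The part of RNA from other tissues in these values was not tested.

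The effect of the WD on *Pcx* differed between the tissues, by 0.68 on the log2 scale (kidney minus gastrocnemius, SE 0.099, adjusted p = 4.87e-05, edgeR), and was called with each of the 20 libraries left out in turn.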

How the results depend on the processing

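In kidney, *Fbp1* and *Slc5a2* kept their calls for WD vs. CD in 22 of 22 alternatives, and *Fbp1* for WD + CHP vs. CD in 22 of 22, while *Slc2a5* lost its call for WD vs. CD in 10 and *Khk* in 4. The number of the 9 genes called for WD vs. CD was 2 in place of 4 without the libraries richest in *Alb* and 2 to 4 with each library left out, with 2 without CD replicate 1 or WD replicate 1 or 3. For WD + CHP vs. CD it was 1 in place of 2 with only the 2 groups in the fit, and 1 to 3 with each library left out. It stayed at 0 for WD + CHP vs. WD in every alternative. In gastrocnemius, the call of *Pcx* on the WD was lost with the adipocyte score (0 genes called) and kept in the other 22 of 23 alternatives. The score is tied to the WD group, so that fit cannot separate the score from the group. The 1 call of *Pck1* in WD + CHP vs. WD became 0 with no filter (adjusted p = 0.0777), with the adipocyte score, without the 4 libraries holding liver or sperm transcripts and with the replicate block, alone (-0.89, adjusted p = 0.0599) or with the length and GC correction (-0.91, adjusted p = 0.0613), and 0 or 1 gene was called with each library left out. WD + CHP vs. CD gave 1 call in place of 2 without those 4 libraries. The tissues differed in the effect of CHP for 1 gene in place of 0 with the total count in place of TMM (*Pck1*, 0.78, adjusted p = 0.0451) and for 0 or 1 with each library left out (*Pcx* without kidney WD + CHP replicate 5, otherwise *Pck1*). Same-numbered libraries were not paired by the data (r from -0.126 to 0.146, own number best in at most 2 of 5), so the block rests on a shared number only. It gave 5 calls for kidney WD vs. CD, 0 for WD + CHP vs. WD and 3 for WD + CHP vs. CD, and 1, 0 and 2 in gastrocnemius. Changes of sign occurred where the estimate was near 0 and not called. *Slc5a1* in kidney was -0.0015 for WD vs. CD, -0.012 for WD + CHP vs. WD and -0.014 for WD + CHP vs. CD without the libraries richest in *Alb*, and -0.031 and -0.019 for the last pair with the total count. For WD + CHP vs. WD it was -0.0012 with the block and -0.0050 with the block and the length and GC correction. With each library left out, *Slc5a1* ran from -0.017 to 0.082 for WD vs. CD, from -0.039 to 0.055 for WD + CHP vs. WD and from -0.0066 to 0.089 for WD + CHP vs. CD, and *Slc2a2* from -0.099 to 0.031 for WD + CHP vs. WD. *Pcx* in kidney was, for WD + CHP vs. CD, 0.0028 with DESeq2 or its size factors, 0.0018 with no filter, 0.00070 with at least 10 counts in every library, 0.0017 with only the 2 groups, 0.051 with the length and GC correction without and with the block, 0.015 without the libraries richest in *Alb*, and -0.062 to 0.043 with each library left out. *Khk* for WD + CHP vs. WD in kidney was 0.012 with the length and GC correction and 0.011 with the block as well. *Khk* in gastrocnemius was -0.099 for WD vs. CD and 0.20 for WD + CHP vs. WD with the adipocyte score. For WD + CHP vs. WD it was also 0.0011 with DESeq2, 0.0010 with its size factors, 0.0053 with no filter, 0.0059 with only the 2 groups, and -0.052 to 0.051 with each library left out. For WD + CHP vs. CD it was -0.0069 with the length and GC correction and -0.011 with the block as well. The cause of these changes was not tested. Among all genes, the 1619 called for kidney WD vs. CD became 1007 without the libraries richest in *Alb*. The 31 of kidney WD + CHP vs. WD ranged from 0 (without those libraries, with 1653 at an unadjusted p under 0.05) to 194 (DESeq2), and were 5 after the length and GC correction. The 58 of gastrocnemius WD + CHP vs. WD became 249 with DESeq2 and 2 without the 4 libraries, which also left 200 of 1312 for WD vs. CD and 415 of 1423 for WD + CHP vs. CD. With the total count, the split of higher and lower genes was 654 and 1795 in place of 1084 and 994 for kidney WD + CHP vs. CD, and 0 and 58 in place of 9 and 49 for gastrocnemius WD + CHP vs. WD.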
